A study of Mus musculus with 12 samples.

Results

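RNA of dark zone (DZ) B cells of the germinal centre was compared between cells of high and of low affinity for their antigen, on 6 of the 12 expression arrays of the study. The 6 arrays are those whose labels give the dark zone, 3 at high affinity (DZ high) and 3 at low affinity (DZ low), and the suffix of each array's description joins 1 array of each group into a matched set, numbered 1 to 3. The other 6 arrays are the light zone (LZ) cells of the same design, 3 per affinity, and enter the fit to estimate the spread. In all 4 groups SwHEL B cells, whose antigen receptor recognizes hen egg lysozyme and which carry the congenic marker CD45.1, had been given to C57BL/6J hosts, which carry CD45.2, and the hosts received sheep red blood cells bearing HEL3x, a lysozyme mutant, as immunogen. On day 10 spleen cells of donor origin (CD45.1+, CD45.2-, IgG1+, CD38 low) were sorted. DZ cells were gated as CXCR4 high and CD86 low and LZ cells as CD86 high and CXCR4 low, so the 2 groups compared here share their zone gate and differ in their label for affinity. The labels give female mice, and they give no age, no rule for the affinity gate and no number of animals per array. The arrays may therefore hold pooled animals, and the spread between them may be partly technical.

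In the dark zone germinal centre B cells divide and acquire mutations in their antibody genes. In the light zone they test the mutated receptor on antigen held by follicular dendritic cells and compete for help from T follicular helper cells, and cells that get help return to the dark zone. Cells with a better receptor take up more antigen and present more peptide to T cells, and help is known to set how long a cell goes on dividing after its return. The comparison asks what distinguishes dark zone cells that differ in how well their receptor binds.

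Values are log2 RMA expression values, 1 probe set per gene, with 11206 genes bright enough to be tested. Array medians lay between 5.57 and 5.72. The arrays of matched set 3 stood apart from the others on the first principal component, which held 40.1% of the variance, with scores of 35.5 for DZ high and 12.5 for DZ low against -22.4 to -6.7 for the DZ arrays of sets 1 and 2. With group means removed, the deviations of the 2 DZ arrays of a set had a correlation across genes of -0.071 in set 1, 0.23 in set 2 and 0.48 in set 3, so the DZ arrays of set 1 did not deviate together. The DZ label was checked on its gate and markers. Cd86 was lower in DZ than in LZ cells by 1.47 on the log2 scale at high affinity (difference -1.47, SE 0.15, adjusted p = 0.00831) and had a difference of -0.80 at low affinity (SE 0.15, adjusted p = 0.0898). Cxcr4 differed by 0.80 (adjusted p = 0.201) and 0.45 (adjusted p = 0.526), in the direction of its gate and short of the threshold. Over all tested genes limma called 9 (0.0803%) between the zones at high affinity and 25 (0.223%) at low affinity, or 4 and 4 without the replicate block. The Cd86 call at high affinity was lost without single arrays: without the DZ high array of set 1 or 3, or the LZ high array of set 1 or 2, its adjusted p was 0.0583, 0.0592, 0.0562 and 0.0677, while the difference stayed between -1.62 and -1.34 without any 1 array. All 25 tested light zone markers had lower values in DZ cells at both affinities, with medians of -0.71 and -0.76. Of 18 tested dark zone markers 13 were above LZ at high affinity and 17 at low affinity, with 5 and 1 below and medians of 0.53 and 0.37. The B cell genes Cd79a, Cd79b, Ms4a1 and Pax5 and the germinal centre genes Bcl6, S1pr2 and Fas were above the array median on 6 of 6 DZ arrays, while the gate genes Cd38 and Ighg1 had no usable probe set of their own.

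No gene passed the test for DZ high minus DZ low. With matched set as a block, limma called 0 of 11206 genes at an adjusted p under 0.05 (0% of those tested), and 597 genes, or 5.33%, had an unadjusted p under 0.05, 209 with higher values (1.87%) and 388 with lower values (3.46%) at high affinity. Without the replicate block the counts were 0 and 247. The split between the directions rested on set 1: without that set 740 genes had an unadjusted p under 0.05 and 530 of them were higher at high affinity, whereas without set 2 there were 516 and 64 of them were higher. It also moved with the scaling, with 383 of 760 higher after quantile normalization and 116 of 491 with each array centred on its median. The values that follow therefore describe genes and gene groups, ordered by their p, and none of the differences between DZ high and DZ low is called. In sorted populations measured as a bulk, more cells in a cycle phase or of another type cannot be told apart from more RNA per cell. Of all tested genes 50.4% had a difference above 0 and 49.6% one below 0. A group of genes is read against 4 background shares of all tested genes: 9.31% were higher in each of the 3 sets and 12.7% lower in each, and 3.29% had all DZ high arrays above all DZ low arrays and 3.86% all below. The gene lists were chosen with earlier results of these data known. Some hold genes fixed by name for this contrast, such as Gins2, Pdia4, Fcer2a and Cd86. A list's share beside the background share is therefore a description and does not test the list.

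Of all tested genes, the IgE receptor gene Fcer2a (CD23, a surface protein of resting and light zone B cells; probe set 10576757) had the smallest p. Its log2 values were 7.98, 8.40 and 8.44 on the DZ high arrays of sets 1, 2 and 3 and 9.22, 9.23 and 9.70 on the DZ low arrays. Every DZ high array was below every DZ low array. The difference was -1.11 ± 0.15 (SE of the fit, n = 3 per group; limma adjusted p = 0.358), and it was negative under all 26 alternative settings. The order of the 4 groups was DZ high, DZ low, LZ high and LZ low, with means of 8.27, 9.38, 10.13 and 10.92, and no array of a group reached into the next.

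Cd86, which encodes the ligand that engages CD28 on T cells and was itself used as a gate, had values of 9.41, 9.58 and 9.27 on the DZ high arrays. The DZ low arrays had 10.28, 10.00 and 10.41. The groups did not overlap, and the lowest DZ low array was that of set 2. The difference was -0.81 ± 0.15 (adjusted p = 0.666). LZ cells of high and low affinity had means of 10.89 and 11.03, a difference of -0.14, and the difference between the 2 affinity effects did not pass its test (interaction 0.67 ± 0.21, limma unadjusted p = 0.0105, adjusted p = 1).

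Il6st encodes gp130, the signalling chain shared by the receptors of interleukin-6 and related cytokines. Its values were 6.38, 6.64 and 6.37 on the DZ high arrays and 5.80, 5.61 and 5.13 on the DZ low arrays. All 3 DZ high arrays were above all DZ low arrays, and the difference was 0.95 ± 0.18 (adjusted p = 0.666). Vat1, a vesicle membrane protein gene, had values of 6.53, 6.52 and 6.68 against 5.61, 5.98 and 5.89 and a difference of 0.75 ± 0.15 (adjusted p = 0.666). Its 3 DZ high arrays also exceeded all 6 LZ arrays, which lay between 5.77 and 6.23.

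Pdia4 encodes a protein disulfide isomerase that folds secreted proteins in the endoplasmic reticulum (ER). It had values of 9.74, 9.47 and 9.61 on the DZ high arrays and 9.22, 7.70 and 8.02 on the DZ low arrays. The DZ low array of set 1 stood with the DZ high arrays, and the other DZ low arrays lay near the LZ arrays, which ranged from 7.94 to 8.17. The difference was 1.29 ± 0.27 (adjusted p = 0.69). Without the DZ low array of set 1 it was 1.73 (adjusted p = 0.0193), the only call made in the DZ comparison under any alternative. A second Pdia4 probe set was dim, with values of 3.94 to 5.36 on the DZ arrays, and differed by 0.44.

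Gins2, a subunit of the GINS complex that opens DNA at replication forks, had values of 9.37, 9.22 and 9.59 on the DZ high arrays and 9.21, 8.39 and 8.59 on the DZ low arrays. The groups did not overlap, although the DZ low array of set 1 came close to the lowest DZ high array. The difference was 0.66 ± 0.23 (adjusted p = 0.895).

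**Figure D1:**
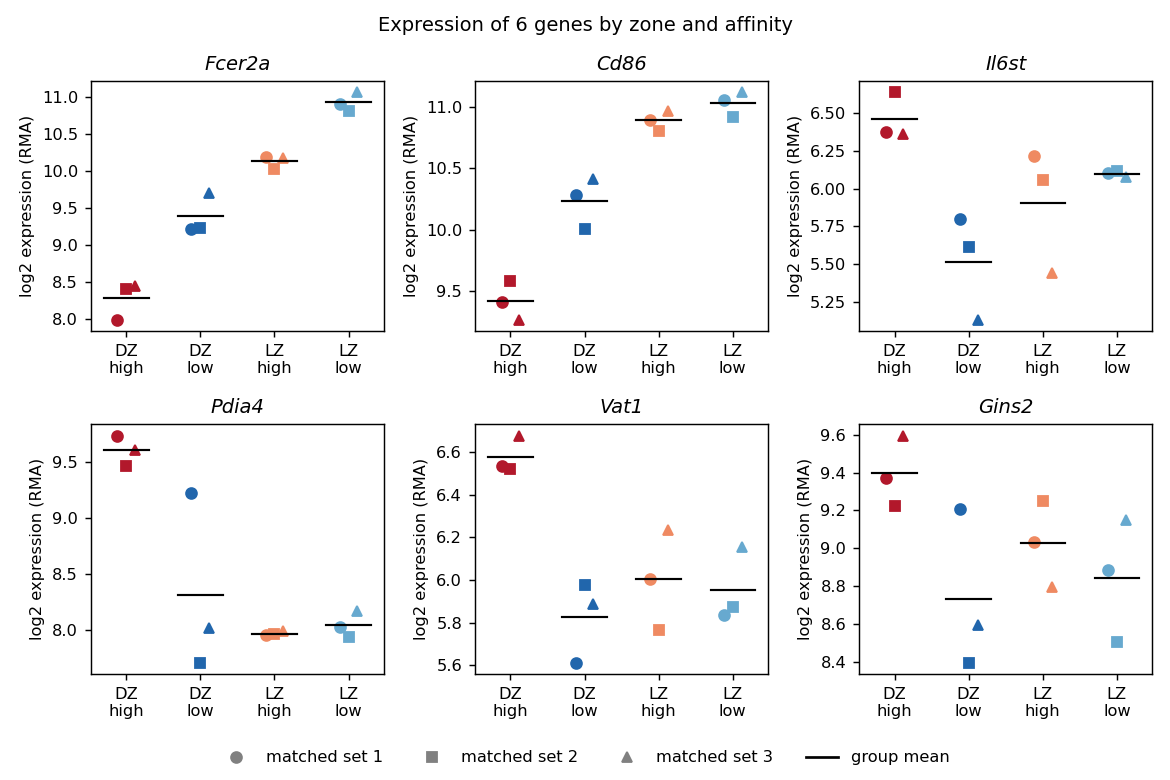
Log2 RMA expression of 6 genes (1 panel each; vertical axis in log2 units) on the 3 arrays of each group, with the shape of a point giving its matched set and the bar the group mean. Fcer2a and Cd86 lie lowest in DZ high cells; Pdia4, Il6st and Vat1 lie highest there, with the DZ low array of set 1 at 9.22 for Pdia4.

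The 12 genes with the smallest p among those higher at high affinity in all 3 sets were, besides Il6st, Vat1 and Pdia4, Sub1, a single-stranded DNA binding coactivator gene (0.88 ± 0.17), Ddost, a subunit of the complex that attaches sugar chains in the ER (0.85 ± 0.19), Entpd1, the ectonucleotidase CD39 (1.22 ± 0.30), the surface receptor gene Cd93 (0.63 ± 0.16), Rexo2, an exonuclease of short RNAs (0.67 ± 0.17), Magef1 (0.57 ± 0.15), Tmem267 (1.34 ± 0.31), Gemin8 of the SMN complex (0.72 ± 0.18) and Uhrf1, which keeps DNA methylation through replication (0.48 ± 0.13). Sub1 had values of 11.08, 11.14 and 10.72 on the DZ high arrays against 10.60, 10.04 and 9.66 on the DZ low arrays. Entpd1 had 5.74, 5.82 and 6.86 against 5.02, 4.31 and 5.41. Each of these 12 genes was higher at high affinity in every set, which the choice required. Of the 12, Entpd1, Cd93, Magef1 and Tmem267 passed the filter on dim genes only with their DZ high arrays, so a higher value there was in part fixed by the filter. Their DZ low values were below the array medians, and their differences are given as a description. The value of Gemin8 depends on its probe set, since a second, dimmer one differed by -0.067.

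Among the 12 genes with the smallest p that were lower at high affinity in all 3 sets, Foxp1, a forkhead transcription factor gene, had values of 7.70, 7.97 and 7.82 on the DZ high arrays and 8.51, 8.50 and 8.74 on the DZ low arrays (difference -0.76 ± 0.15, adjusted p = 0.666). Il4ra, the receptor chain for interleukin-4, a cytokine of T follicular helper cells, had 8.70, 8.64 and 9.65 against 9.35, 9.31 and 10.30. Set 3 was higher than the others in both groups for Il4ra, so the groups overlap, while the differences within the sets were alike (-0.65 ± 0.15 in the fit). Dock10, a guanine nucleotide exchange factor induced by interleukin-4, had 7.94, 8.47 and 7.41 against 8.75, 8.92 and 8.73 (-0.86 ± 0.19). The others besides Fcer2a and Cd86 were Kdm7a, a histone demethylase gene (-1.58 ± 0.33), Kcnrg (-1.21 ± 0.24), Adam1a (-1.03 ± 0.21), the Rab exchange factor gene Dennd4a (-0.87 ± 0.19), Pdzd2 (-0.70 ± 0.14), Tsnaxip1 (-0.69 ± 0.13) and the Krüppel-like factor gene Klf7 (-0.62 ± 0.15). For Kdm7a, Kcnrg and Klf7 the groups overlapped, and without the replicate block their SE was 0.76, 0.95 and 0.48. A second Kdm7a probe set differed by -0.64. The adjusted p of the 24 genes lay between 0.358 and 0.854.

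Genes of the G1/S transition and of DNA replication had the largest median among the lists with at least 5 tested members, apart from a granulocyte list described below. They license and fire replication origins, supply nucleotides and copy the DNA, and transcription factors of the E2F family switch many of them on. Of 45 tested genes in the list 44 had higher values in DZ high cells, against 50.4% of all tested genes, and the exception, named for that reason, was Pola1, a subunit of the priming polymerase, at -0.025 (0.067 without set 3). The median difference was 0.32, against 0.0018 over all tested genes. A total of 12 replication genes, 26.7% of the list against 1.87% of all tested genes, had an unadjusted p under 0.05 with a higher value, and 25 (55.6% against 9.31%) were higher in all 3 sets; no member was lower in all 3. The maintenance methylation factor gene Uhrf1 had values of 10.87, 10.82 and 11.26 on the DZ high arrays against 10.50, 10.17 and 10.83 on the DZ low arrays. Mcm10, which loads the polymerase, had 7.98, 8.46 and 8.80 against 7.95, 7.65 and 7.82 (0.60 ± 0.20). Ccne1, the cyclin E that drives entry into S phase, had 8.09, 7.98 and 8.20 against 7.66, 7.67 and 6.88 (0.69 ± 0.23). For Mcm10 and Ccne1 all DZ high arrays lay above all DZ low arrays, though narrowly for Mcm10, where the arrays of set 1 were nearly equal. Mcm7, a subunit of the replicative helicase, had 8.84, 9.25 and 9.70 against 8.79, 7.92 and 9.17 (0.63 ± 0.23), and its groups overlapped.

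The size of the replication difference varied with the set, and so did the scale of the arrays. The list's median was 0.084, 0.60 and 0.34 in sets 1, 2 and 3, while the median of all tested genes was -0.13, 0.074 and 0.00. After quantile normalization between arrays the list had 0.29, 0.44 and 0.35, and all genes -0.0028, 0.022 and 0.010. The median without set 1, 2 or 3 was 0.46, 0.22 and 0.33, with 42, 39 and 43 of 45 genes higher. In LZ cells the same genes had a median of 0.23, with 40 of 45 higher at high affinity and medians of 0.26, 0.41 and -0.0041 in the 3 sets.

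To show the elements by which replication genes are known to be regulated, promoters from the RefSeq table (GRCm38.p6) were searched in the 250 bases before each start for the E2F letters TTTCCCGC and TTTGGCGC on both strands. Of 36 matched genes of the list 6 held a match (16.7%), against 1.51% of 27025 genes in the table. Pola1, the member of the list with a lower value at high affinity, was among the 6. The match of Mcm7, the member with one among the 5 of smallest p, is shown in capitals, as the reverse complement of TTTCCCGC, at chr5:138172021-138172068 on the minus strand:
Mcm7: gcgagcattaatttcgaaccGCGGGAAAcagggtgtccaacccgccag
A match describes these letters and was not tested as a binding site.

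**Figure D2:**
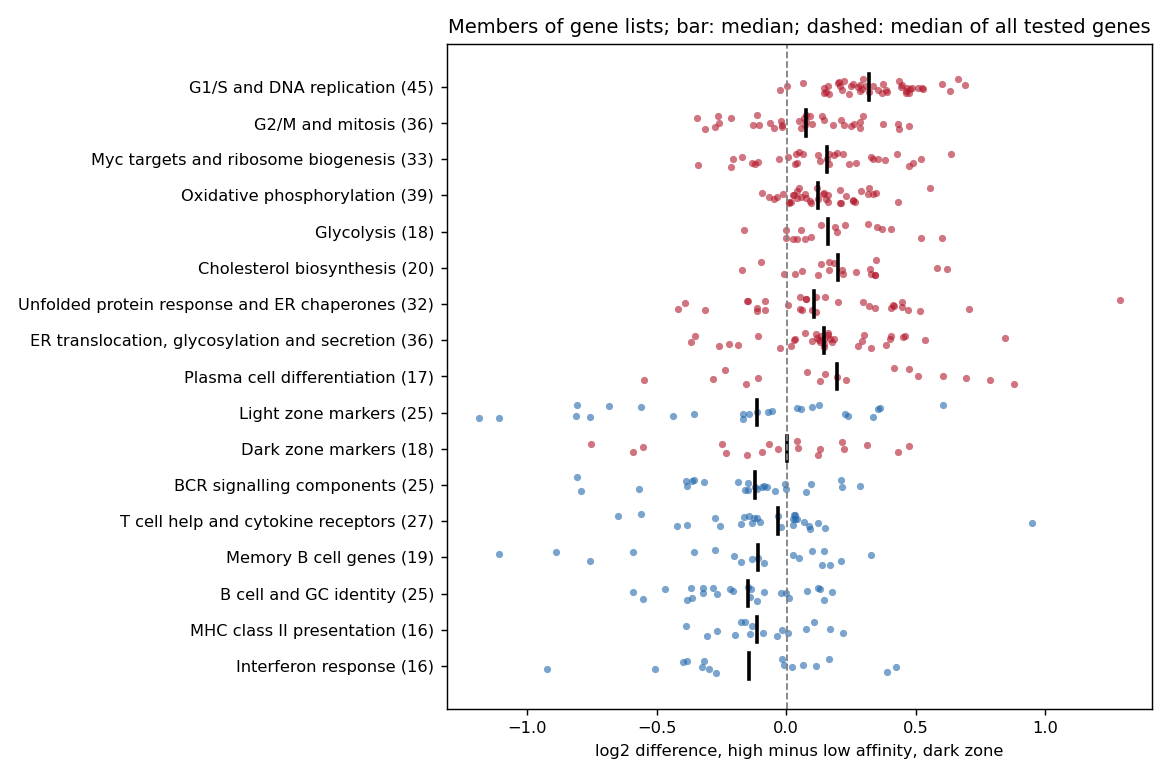
Log2 difference between DZ high and DZ low cells (horizontal axis) of every tested member of 17 gene lists, with the number tested in parentheses; red points belong to lists with a median above 0 and blue points to lists with a median below 0, vertical position within a list is arbitrary, the bar is the list's median and the dashed line the median of all tested genes, 0.0018. Of the replication genes 44 of 45 lie to the right of 0, and Pdia4 stands furthest right among the ER chaperones.

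The genes that fold and export proteins through the ER tended to higher values at high affinity, led by Pdia4. The unfolded protein response adjusts ER chaperones to the load of secretory protein and is known for its part in the step from B cell to plasma cell. Of 32 tested members 23 had higher and 9 lower values, with a median of 0.11. Of these, 7 had an unadjusted p under 0.05 with a higher value (21.9%, against 1.87% of all tested genes) and 1 with a lower value (3.12%, against 3.46%). The ER chaperone gene Hsp90b1 had values of 12.54, 12.32 and 11.67 on the DZ high arrays against 12.03, 11.75 and 11.33 on the DZ low arrays, higher in each set by 0.34 to 0.57 (0.47 ± 0.13). Creld2, a chaperone of secreted proteins, had 9.53, 9.28 and 8.90 against 8.88, 8.33 and 8.38 (0.71 ± 0.24), and Sel1l, of the machinery that removes misfolded proteins, 8.83, 8.77 and 9.23 against 8.72, 8.19 and 8.37 (0.52 ± 0.20). In both, all DZ high arrays exceeded all DZ low arrays. Chac1, a glutathione-degrading enzyme gene that the ATF4 branch of the response induces, went the other way, with 6.04, 5.90 and 5.70 against 6.05, 6.32 and 6.52 (-0.42 ± 0.16). In the deposited values the median was 0.0046 below 0 without set 2 (16 of 32 higher), 0.20 without set 1 and 0.16 without set 3. Within sets 1, 2 and 3 it was -0.036, 0.37 and 0.083. After quantile normalization these values were 0.13, 0.23 and 0.090, above 0 in each set and largest in set 2.

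The ER stress element (ERSE), by which the factors ATF6 and XBP1 act on chaperone genes, was searched in the same promoter windows on both strands as CCAAT followed by 9 open bases and CCACG. It was found in 9 of 28 matched members (32.1%) and in 0.13% of all genes in the table. A related element, ERSE-II, with the letters ATTGG, 1 open base and CCACG, which shares CCACG with it and holds the reverse complement of CCAAT, was found in 1 of the 28 members (3.57%) and in 0.037% of all genes. The windows of the members with a match among the 5 of smallest p are given with the fixed letters of the element in capitals. They lie at chr10:86705513-86705676 on the minus strand for Hsp90b1, which holds the element in both orientations, and at chr15:88819500-88819558 on the plus strand for Creld2, where it is the reverse complement:
Hsp90b1: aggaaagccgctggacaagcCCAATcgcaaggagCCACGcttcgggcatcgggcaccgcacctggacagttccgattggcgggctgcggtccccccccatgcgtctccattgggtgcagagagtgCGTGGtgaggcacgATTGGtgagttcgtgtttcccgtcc
Creld2: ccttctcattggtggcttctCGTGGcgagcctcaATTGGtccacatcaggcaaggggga
These are descriptions of the windows, and the Pdia4 window held no match to these letters.

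Genes of ER translocation, glycosylation and vesicle transport gave a median of 0.15, with 29 of 36 tested members higher. Among them 3 had an unadjusted p under 0.05 with a higher value (8.33%, against 1.87% of all tested genes) and none with a lower one. Ddost had values of 8.80, 9.12 and 9.34 on the DZ high arrays and 8.60, 8.01 and 8.11 on the DZ low arrays. Its groups did not overlap, and neither did those of Ssr4 of the translocon (0.45 ± 0.20) and of Srprb, a subunit of the signal recognition particle receptor (0.54 ± 0.25); Sec61a1, the channel itself (0.41 ± 0.17), and Rpn2 (0.38 ± 0.18) overlapped. The median was 0.26 without set 1, 0.043 without set 2 and 0.16 without set 3.

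Genes of plasma cell differentiation had a median of 0.20 over 17 tested members, 12 higher and 5 lower. Of the members 4 had an unadjusted p under 0.05 with a higher value (23.5%, against 1.87% of all tested genes). These were Sub1, Tent5c, Fkbp11 and Jchain. Tent5c, a poly(A) polymerase that stabilizes immunoglobulin mRNA, had values of 7.76, 8.34 and 8.39 on the DZ high arrays and 7.67, 6.97 and 7.49 on the DZ low arrays (0.79 ± 0.22). Jchain, the joining chain of secreted antibody polymers, had 11.53, 11.24 and 11.41 against 11.07, 10.62 and 10.96 (0.51 ± 0.18). Fkbp11, a prolyl isomerase of secretory cells, had 6.05, 6.15 and 5.80 against 5.66, 5.31 and 4.95 (0.69 ± 0.21). In Sub1, Tent5c and Jchain the DZ high arrays lay above the DZ low arrays without overlap. Fkbp11 passed the filter on dim genes only with its DZ high arrays, and 1 other member only with the arrays of a DZ group. Without these, 10 of 15 members were higher, 3 had an unadjusted p under 0.05 with a higher value, and the median was 0.15. Of the transcription factors of this fate, Irf4 had 5.92, 6.40 and 6.33 against 6.27, 5.17 and 5.39 (0.61 ± 0.28) and Xbp1 had 8.47, 7.99 and 8.78 against 8.33, 7.69 and 7.97 (0.42 ± 0.20). Both overlapped, and Prdm1 was too dim to be tested. The list's median without set 2 was 0.094.

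**Figure D3:**
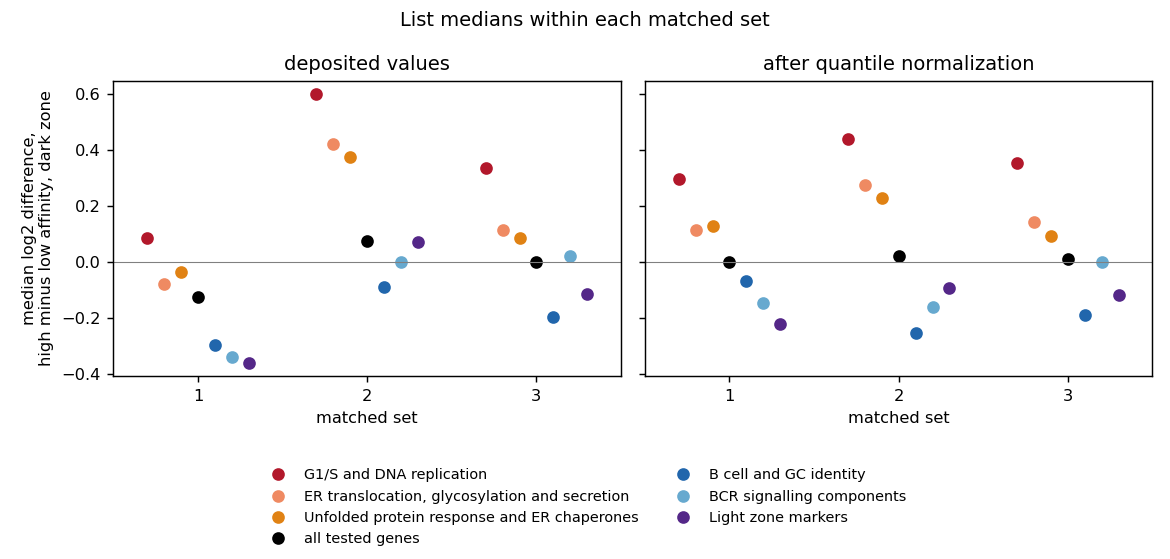
Median log2 difference between DZ high and DZ low cells (vertical axis) of 6 gene lists and of all tested genes within each matched set (horizontal axis; colour gives the list), from the deposited values (left) and after quantile normalization (right). In the deposited values all medians were lowest in set 1, where all tested genes had -0.13, and the replication genes had the highest median of these lists in every set in both panels.

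Light zone markers tended to lower values in DZ high cells. The list gave a median of -0.11, with 15 of 25 tested members lower. Of the 25, 7 had an unadjusted p under 0.05 with a lower value (28%, against 3.46% of all tested genes). Fcer2a and Cd86 were among the 7, and none of the higher members reached that p. Cd69, an early activation antigen that holds lymphocytes in tissue, had values of 5.37, 6.14 and 5.56 on the DZ high arrays and 6.90, 6.42 and 7.32 on the DZ low arrays (-1.19 ± 0.33). Slamf1, an adhesion receptor gene of T and B cell contacts, had 8.13, 8.12 and 8.12 against 8.76, 8.62 and 9.05 (-0.69 ± 0.20). The groups of both did not overlap. Hhex, a homeobox factor gene of the memory fate, had 5.72, 6.16 and 5.67 against 7.00, 6.07 and 6.75 (-0.76 ± 0.27), and set 2 went the other way. Cd72, an inhibitory co-receptor, had a difference of -0.81 ± 0.30, and Icosl, the ligand of ICOS on T follicular helper cells, one of -0.56 ± 0.22, both without overlap. The list's median was 0.0019 without set 1 (13 of 25 higher).

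Dark zone markers gave a median of 0.0049 (-0.021 with each array centred on its median), 9 of 18 higher and 9 lower, and held genes on both sides. The median was 0.13 without set 1 (13 of 18 higher), -0.073 without set 2 and -0.075 without set 3. Foxp1 and Mybl1 (-0.55 ± 0.19), a MYB family factor of germinal centre B cells, had lower values, and the mitotic kinases Aurka (0.43 ± 0.18) and Plk1 (0.47 ± 0.20) had higher ones. Bach2, a repressor that holds B cells back from plasma cell fate, had 7.83, 8.33 and 8.53 on the DZ high arrays and 8.83, 8.69 and 8.96 on the DZ low arrays (-0.59 ± 0.31). Its groups did not overlap, with the largest gap in set 1. Foxo1, the forkhead factor that maintains the dark zone, had a difference of -0.25 ± 0.18, and Cxcr4 one of 0.044 ± 0.18 (-0.20 without set 3).

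Genes of B cell and germinal centre identity had a median of -0.15, with 18 of 25 tested members lower and 11 lower in all 3 sets (44% of the list, against 12.7% of all tested genes). In this list 5 had an unadjusted p under 0.05 with a lower value, 20% against 3.46%. Bcl6, the repressor that defines the germinal centre B cell, had values of 9.38, 9.74 and 9.80 on the DZ high arrays and 10.07, 9.97 and 10.29 on the DZ low arrays (-0.47 ± 0.16), with no overlap. Ikzf3, the zinc finger factor Aiolos, had 10.73, 10.70 and 10.53 against 11.10, 10.92 and 10.90 (-0.32 ± 0.13), again with no overlap. Ebf1, which specifies the B lineage, had a difference of -0.38 ± 0.16, and Ptprc, which encodes CD45, one of -0.37 ± 0.15. Pax5 had -0.37 ± 0.18. The median without set 2 was -0.27. The same genes had a median of -0.16 in LZ cells, with 4 of 25 higher at high affinity, so the lower values were not particular to DZ cells.

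Components of antigen receptor signalling had lower values in 19 of 25 tested members, with a median of -0.12, and 8 were lower in all 3 sets (32% against 12.7%). Here 4 had an unadjusted p under 0.05 with a lower value, 16% against 3.46% of all tested genes. Cr2, the complement receptor CD21 that lowers the threshold of the antigen receptor, had values of 9.23, 9.58 and 8.62 on the DZ high arrays and 9.57, 10.01 and 9.55 on the DZ low arrays (-0.57 ± 0.18). Rasgrp3, which links the receptor to Ras, had 10.54, 10.57 and 10.24 against 10.83, 10.94 and 10.74 (-0.38 ± 0.13), and Prkcb, the kinase upstream of NF-kB, 9.08, 9.36 and 9.09 against 9.62, 9.54 and 9.52 (-0.39 ± 0.15). Rasgrp3 and Prkcb did not overlap between the groups. The median was -0.017 without set 1, -0.20 without set 2 and -0.22 without set 3. In LZ cells the same genes had a median of -0.35, with 0 of 25 higher at high affinity, so the lower values were not particular to DZ cells.

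Receptors for T cell help had values on both sides. Of 27 tested members 12 were higher and 15 lower, with a median of -0.030, which turned to 0.013 after quantile normalization. Il6st and Il4ra had the smallest p on either side. Ifngr2, a chain of the interferon gamma receptor, had 7.25, 7.42 and 7.34 on the DZ high arrays and 7.67, 7.44 and 8.04 on the DZ low arrays (-0.38 ± 0.17), and Jak2 a difference of -0.42 ± 0.21. Memory B cell genes had a median of -0.11 (11 of 19 lower); besides Fcer2a and Hhex, Klf6 had 7.00, 7.45 and 6.34 against 7.92, 7.59 and 7.95 (-0.89 ± 0.26). The memory median was -0.0047 without set 1 and -0.016 without set 2.

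Metabolic genes had mostly higher values in DZ high cells, with small differences. Oxidative phosphorylation had 34 of 39 higher (median 0.12), glycolysis 16 of 18 (0.16) and cholesterol biosynthesis 17 of 20 (0.20). Fdps, which makes farnesyl pyrophosphate, had 8.72, 9.01 and 9.17 on the DZ high arrays and 8.51, 8.15 and 8.49 on the DZ low arrays (0.58 ± 0.16), and Ldha, lactate dehydrogenase A, had 9.69, 10.09 and 10.49 against 9.55, 9.27 and 9.88 (0.52 ± 0.16). Fdps did not overlap and Ldha did. With an unadjusted p under 0.05, 2, 2 and 1 members of the lists were higher and none lower. The shares were 5.13%, 11.1% and 5% of the lists, against 1.87% of all tested genes with a higher value. Without set 2 the medians were 0.056, 0.039 and 0.074, with 26, 11 and 13 members higher.

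The mitotic list (G2 and M phases) had 22 of 36 higher values and a median of 0.075, which was 0.17 without set 1 and -0.096 without set 2. Ccna2, the cyclin of S and G2 phases, had a difference of 0.28 ± 0.15, and Mki67, a gene of all dividing cells, one of 0.073 ± 0.22 (-0.043 without set 2). In the mitotic list 2 members had an unadjusted p under 0.05 with a higher value and none with a lower one. That was 5.56% of the list, against 1.87% of all tested genes. Myc targets and ribosome biogenesis had 25 of 33 higher and a median of 0.16, or -0.0049 without set 2. In the Myc list 4 members (12.1%) had such a p with a higher value, and none with a lower one. Cmss1 (0.64 ± 0.20) and Eef1e1 (0.43 ± 0.17) of that list did not overlap between the groups, and Myc itself had 7.33, 8.14 and 8.55 on the DZ high arrays and 7.81, 7.12 and 8.04 on the DZ low arrays (0.35 ± 0.38), lower at high affinity in set 1 and higher in sets 2 and 3. Somatic hypermutation and repair genes had a median of 0.084 (18 of 28 higher), MHC class II presentation -0.11 (11 of 16 lower), NF-kB and CD40 targets -0.071 (10 of 17 lower), immediate early genes 0.12 (12 of 17 higher), the interferon response -0.14 (10 of 16 lower) and apoptosis regulators -0.042 (13 of 22 lower). In the lists from hypermutation and repair to apoptosis regulators, 2 members had an unadjusted p under 0.05. These were Cd69 and the interferon-induced gene Xaf1 (5.02, 5.17 and 5.79 on the DZ high arrays, 6.44, 5.81 and 6.50 on DZ low). They made up 5.88% of the immediate early and 6.25% of the interferon list, against 3.46% of all tested genes with a lower value. These medians came nearer to 0 or turned when 1 set was left out. Without set 2 hypermutation and repair had -0.026 and immediate early genes 0.018. Without set 1 MHC class II presentation had -0.00050, NF-kB and CD40 targets -0.0094, the interferon response -0.0069 and apoptosis regulators 0.068. The immediate early list also held 4 genes that passed the filter only with the arrays of a DZ group, and without them 9 of 13 were higher (median 0.098). Dissociation stress genes had a median of 0.064 (5 of 10 higher).

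Whether the affinity difference in DZ cells departs from that in LZ cells was tested with the interaction of zone and affinity. No gene passed: limma called 0 of 11206 genes (0%), 408 had an unadjusted p under 0.05 (3.64%), and without the replicate block 177 did. Il6st was among the genes with the smallest p, with values between 5.44 and 6.22 on the LZ arrays, a difference of -0.19 ± 0.18 in LZ cells against 0.95 in DZ cells, and an interaction of -1.14 ± 0.25 (adjusted p = 1). Hmmr, which encodes a spindle-associated protein of dividing cells, had the smallest p, with -0.26 ± 0.23 in DZ cells and 1.43 ± 0.23 in LZ cells (interaction 1.69 ± 0.32, adjusted p = 1). Efcab7, Lztfl1 and Zfp944 had likewise a negative difference in DZ cells (-0.76, -0.33 and -0.44) and a positive one in LZ cells (0.57, 0.63 and 0.74). Dph7, Selplg and Tmem43 had 0.26, 0.37 and 0.42 in DZ cells and -0.53, -0.60 and -0.55 in LZ cells. Selplg encodes the selectin ligand PSGL-1. For Pdia4, Sub1 and Vat1 the LZ differences were -0.075, 0.070 and 0.047, with interactions of -1.37 ± 0.38, -0.81 ± 0.24 and -0.71 ± 0.21 (adjusted p = 1 for each). For Fcer2a, Foxp1 and Il4ra the LZ differences were -0.80, -0.39 and -0.71, on the same side as in DZ cells. Several gene lists also lay on the same side in LZ cells. Mitotic genes had an LZ median of 0.43 (36 of 36 higher) and Myc targets 0.31 (32 of 33). Oxidative phosphorylation had 0.17 (36 of 39 higher), light zone markers -0.21 (8 of 25) and memory genes -0.55 (2 of 19). The unfolded protein response, ER translocation and plasma cell lists had LZ medians of -0.014, 0.0047 and -0.058. Their members lay on both sides there, with 15 of 32, 19 of 36 and 8 of 17 higher at high affinity. Jchain, Tent5c and Hsp90b1 had LZ differences of 0.41, 0.37 and 0.21, on the same side as in DZ cells. Creld2 and Srprb had -0.16 and -0.31, on the other side. In LZ cells limma called 0 genes with the block and 891 had an unadjusted p under 0.05 (7.95%).

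**Figure D4:**
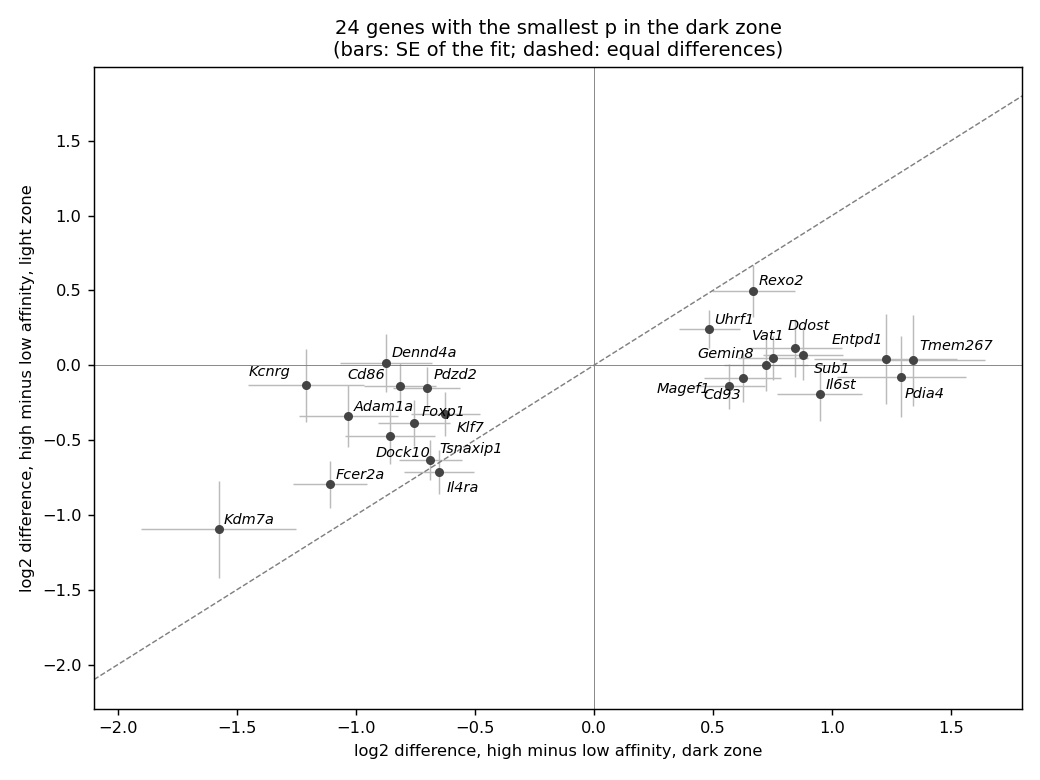
Log2 difference between high and low affinity in DZ cells (horizontal axis) and in LZ cells (vertical axis) for the 24 genes with the smallest p in DZ cells, with bars for the SE of the fit and a dashed line where the differences are equal. Because the genes were chosen by their DZ difference, smaller LZ differences are built into the choice; Fcer2a (-1.11 and -0.80) and Il4ra (-0.65 and -0.71) lie near the dashed line, and Pdia4 and Il6st lie far from it.

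Markers of cells that the sort should remove were read on the same arrays. Of 13 granulocyte markers 7 were bright enough to be tested, and none had an unadjusted p under 0.05. Their median difference was 0.46, and 2 of the 7 passed the filter only with the DZ high arrays; the other 5 had higher mean values in DZ high cells (median 0.46). The mean level of the 7 markers was 5.52, 7.48 and 6.98 on the DZ high arrays and 5.77, 6.76 and 5.79 on the DZ low arrays. S100a9, a calcium-binding protein abundant in neutrophils and named after its values were seen, had 6.11, 10.37 and 9.37 against 7.68, 9.58 and 7.21, high on the arrays of set 2 in both groups and on the DZ high array of set 3. The median granulocyte difference was 0.066, 0.97 and 0.94 in sets 1, 2 and 3, so it was about as large in set 3 as in set 2. Of the 3 sets, set 2 had the largest medians of replication and ER genes. The part of granulocyte RNA in those results was not tested. Without set 1, 2 or 3 the granulocyte median was 1.01, 0.29 and 0.26. Of the other lists, 4 of 14 T cell, 4 of 16 macrophage and dendritic, 6 of 12 follicular dendritic and stromal and 3 of 13 erythroid markers were tested, with medians of -0.050, 0.085, 0.060 and 0.18. Their mean levels on the 6 DZ arrays lay between 5.94 and 6.20, 5.74 and 6.24, 5.89 and 6.14, and 6.53 and 6.75.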

How the data were processed

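RNA was amplified, labelled with biotin and hybridised to Affymetrix arrays, per the labels' protocols. The authors deposited log2 expression values per probe set, made with RMA per the submitters' processing notes, which name the build mm8. Of 28853 probe sets 21789 had 1 gene symbol, 1621 several and 5443 none, and the brightest probe set of each of 19938 genes was used. A gene was tested if at least 3 of the 12 arrays were at or above their own median, which kept 11206 genes. Means of the 4 groups and the matched set as a fixed block were fitted to all 12 arrays with limma 3.58.1 (lmFit and eBayes, R 4.3.3), and p-values were adjusted with Benjamini-Hochberg over all tested genes at 0.05. The matched set comes from the suffix of each array's description. Of 18 pairs of arrays from 1 set 17 had a correlation of deviations above 0.1 (median 0.41), and the exception was the DZ pair of set 1.

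The named genes were the 12 of smallest p in each direction with 1 sign in all 3 sets, the 4 of smallest p in each direction of the interaction, up to 5 of smallest p per list, and genes fixed by name; predicted genes, receptor segments, olfactory receptors and small RNAs were not named. The members and lists were chosen with earlier results of these data known. The fit was tested on simulated data in which 200 of 11206 genes were changed in DZ high. It recovered 0% of them at a log2 change of 0.5, 60.5% at 1 and 95% at 2. The simulated noise was independent between genes and arrays, without shifts shared by all genes of an array. Recovery on the real arrays may therefore differ. The number of arrays limits the precision. Alternatives covered the block, filter, scaling, weights, probe set rule and arrays left out.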

Additional observations from a re-analysis of the deposited data

How the results depend on the processing

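The count of genes called between DZ high and DZ low cells was 0 under 25 of the 26 alternatives and ranged from 0 to 1 over fits that left out an array or a matched set, the 1 being Pdia4 without DZ low replicate 1 (1.73). Without the replicate block 0 genes were called, with 247 at an unadjusted limma p under 0.05 in place of 597. Between the zones, leaving out the replicate block moved the counts of calls from 9 to 4 at high affinity and from 25 to 4 at low affinity. Over fits that left out an array or a set they ranged from 0 to 14 and from 0 to 40. These fits were examined after seeing the data. The zone counts were 30 and 144 with arrayWeights and 34 and 54 with the trend and robust options of eBayes. They were 25 and 48 after quantile normalization and 5 and 2 with each array centred on its median. For DZ high minus DZ low, leaving out the DZ low array of set 3 gave 259 genes at an unadjusted limma p under 0.05. The combination of quantile normalization with no block, chosen after seeing the data, gave 309 such genes in that comparison. The interaction had 0 calls under every alternative run. In LZ cells limma arrayWeights called 37 genes and the other alternatives 0; the cause was not tested. Of 2060 values of 80 named genes under an alternative, 13 turned their sign, in 4 genes, and each of these genes was far from the threshold. Over the fits that left out an array or a set, Cxcr4 ranged from -0.20 to 0.24, Pola1 from -0.12 to 0.067, S100a9 from -0.39 to 1.48 and Mki67 from -0.094 to 0.30; Mki67 was -0.019 under arrayWeights. With 3 arrays per group, small differences may not be detectable, and simulated log2 changes of 0.5 were not recovered. A further 8732 genes were too dim to be tested.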
